A study of Mus musculus with 7 samples.

Results

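Cadherins and protocadherins are calcium-dependent adhesion proteins of the cell surface, here taken as the protein-coding genes of the count table whose symbols are Cdh followed by a number or begin with Pcdh, other than *Cdh5*, the endothelial cadherin. There were 58 such genes among the 38124 genes of the table, of which 21173 were protein-coding. They comprised 17 classical cadherins (5 of type I and 12 of type II), 24 clustered protocadherins and 17 others. Their mRNA levels were compared in embryonic mouse neocortex of the *Tis21*-CreERT2 line, in which *Tis21* drives a tamoxifen-dependent Cre recombinase in progenitors that generate basal progenitors or neurons. Embryos of both groups received tamoxifen and were electroporated *in utero* at E13.5 with a construct that expresses nuclear RFP after recombination, and cells with high RFP were sorted 48 hr later, at E15.5. In both constructs a membrane-bound GFP flanked by loxP sites precedes the RFP and is removed by Cre. The control construct carried no further gene (3 libraries), and the conditional Sox9 expression construct also carried the coding sequence of Sox9, a transcription factor of neural progenitors (4 libraries). The libraries are labelled as biological replicates. The methods describe pooling the cortices of several embryos for each sort, whereas figure legends of the study speak of single neocortices, so the number of embryos behind a library is not known.

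The libraries held 10465562 to 12907778 counts in the controls and 4429704 to 10520214 in the libraries labelled Sox9, so that low counts carry more error in the latter. *Sox9* itself had 34.6, 89.2 and 67.9 CPM (counts scaled to library size, with TMM factors) in the controls and 50.8, 41.1, 31.0 and 37.1 CPM in the libraries labelled Sox9, a log2 fold change of -0.68 (SE 0.25, adjusted p = 0.0493 in edgeR's quasi-likelihood test). Since *Sox9* mRNA was thus not higher where the label names it, the groups are called by their labels throughout. The cells are labelled as neural progenitors. The summed level of 8 neuron markers was 13080 to 16152 CPM in the controls and 11791 to 13887 CPM in the libraries labelled Sox9. The summed level of 8 radial glia markers was 551 to 1071 CPM and 263 to 403 CPM, and 4 of these 8 genes were called lower.

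In classical cadherins, the extracellular repeats bind cadherins of the neighboring cell, and the cytoplasmic tail binds p120-catenin and beta-catenin. Through beta-catenin, alpha-catenin links the junction to actin. N-cadherin (*Cdh2*) is known as the main cadherin of the apical junction belt of radial glia, whereas type II cadherins are expressed in regional and laminar patterns in the developing cortex. Clustered protocadherins are transcribed from 3 gene arrays by choice of promoters and give single neurons a surface identity, and the non-clustered protocadherins act in axon growth, cell sorting and synapse formation.

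Of the 58 genes, 53 had enough counts to be tested. In the libraries labelled Sox9, 7 of the 53 were higher (*Cdh1*, *Cdh3*, *Cdh16*, *Cdh17*, *Cdh23*, *Pcdh12* and *Pcdh15*), 4 were lower (*Pcdh18*, *Cdh12*, *Cdh8* and *Cdh10*) and 42 did not pass the test (adjusted p under 0.01, edgeR's quasi-likelihood test, adjusted over all 16522 genes tested). Of the 14267 protein-coding genes tested, 9.96% were called higher and 3.88% lower. The median log2 fold change was -0.06 over the 53 genes and -0.06 over all protein-coding genes tested. Among the classical cadherins, 2 of 14 tested were higher and 3 lower. Among the clustered protocadherins, 0 of 23 tested were called, with 2 at an unadjusted p under 0.05 and 0 called by DESeq2 or after cyclic loess scaling. Among the others, 5 of 16 tested were higher and 1 lower.

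The 4 genes that were lower were abundant, with 30.1 to 96.9 CPM on average in the controls, whereas the 7 that were higher lay between 0.16 and 3.55 CPM there. Summed over the 4, the level was 255 ± 21.5 CPM (SD, n = 3) in the controls and 125 ± 17.9 CPM (SD, n = 4) in the libraries labelled Sox9. Summed over the 7, it was 8.05 ± 1.39 CPM (SD, n = 3) and 29.7 ± 6.74 CPM (SD, n = 4). These 2 sums are descriptions, since the members were chosen by their calls.

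**Figure D1:**
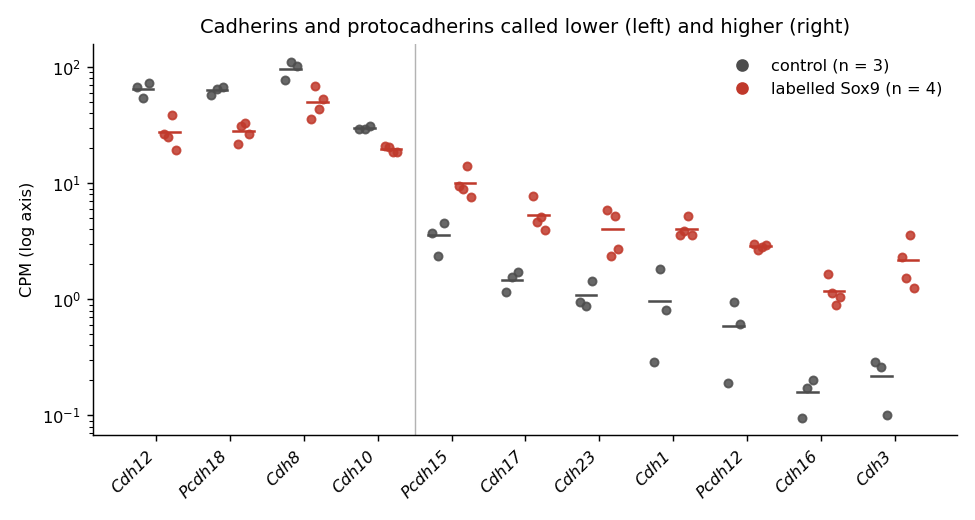
CPM (log axis) of the 11 genes called, in each library, with controls in grey and libraries labelled Sox9 in red; bars mark group means. The 2 groups do not overlap for any of the 11 genes, which were chosen by their calls. Of all protein-coding genes tested, 19.8% were higher and 18.4% lower without overlap of the groups. The 7 genes that were higher lie below 5 CPM in every control library.

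*Pcdh18*, a non-clustered protocadherin of the delta2 group, had the smallest p-value of all cadherins and protocadherins. It lies on the minus strand of chromosome 3 (GRCm38, chr3:49743296-49757325). Its level was 57.2, 64.9 and 67.8 CPM in the controls and 21.6, 31.4, 32.9 and 26.6 CPM in the libraries labelled Sox9. All 4 of the latter were below the lowest control, and the level fell 2.24-fold (log2 fold change -1.17, SE 0.16, adjusted p = 0.0003). The call was made in each of 17 analyses with other settings or with 1 library left out, and the log2 fold change ranged from -1.26 to -0.98 over them. Among the 17, here and below, was the same fit read at an adjusted p under 0.05, in which a call cannot be lost.

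*Cdh12*, a type II cadherin first described in brain (chr15:20449265-21589533, plus strand), behaved in the same way. It had 67.7, 54.2 and 72.5 CPM in the controls and 26.8, 25.1, 38.8 and 19.5 CPM in the libraries labelled Sox9, without overlap of the groups. Its log2 fold change was -1.22 (SE 0.20, adjusted p = 0.0008), a 2.33-fold decrease. The call was again made in all of 17 other analyses, with log2 fold changes of -1.43 to -1.04.

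*Cdh8*, a type II cadherin known for its patterned expression in cortical areas and layers (chr8:99024471-99416471, minus strand), was the most abundant of the 4. Its level was 77.3, 111 and 102 CPM in the controls and 35.6, 68.5, 43.7 and 52.6 CPM in the libraries labelled Sox9. The highest of the latter was close to the lowest control, without reaching it. The log2 fold change was -0.95 (SE 0.19, adjusted p = 0.0031), and the call was lost without Sox9 replicate 3, without control replicate 2 or without control replicate 4, with adjusted p-values of 0.0125 to 0.0172.

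*Cdh10*, a type II cadherin on the same chromosome as *Cdh12* (chr15:18818947-19014236, plus strand), differed by less but with tight replicates. It had 29.5, 29.5 and 31.2 CPM in the controls and 20.7, 20.3, 18.6 and 18.7 CPM in the libraries labelled Sox9, a log2 fold change of -0.62 (SE 0.16, adjusted p = 0.0093). This call lay at the threshold: it was lost without any 1 of the 7 libraries (adjusted p of 0.0200 to 0.0380).

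The radial glia markers moved in the direction of these 4 genes, with 551 to 1071 CPM in the controls and 263 to 403 CPM in the libraries labelled Sox9. Of the 7 intermediate progenitor markers 3 were called lower, *Eomes* (log2 fold change -2.25, adjusted p = 4.9e-05), *Mfap4* (-1.17) and *Btg2* (-0.81), and *Sstr2* (0.39, adjusted p = 0.0635) and *Neurog1* (1.15, adjusted p = 0.14) had positive values. Their summed level was 411 to 452 CPM in the controls and 333 to 429 CPM in the libraries labelled Sox9, in which *Sstr2* alone had 223 CPM on average. Which cells of the sorted population carried the 4 cadherin mRNAs cannot be read from bulk libraries, in which fewer cells of a type and less RNA per cell cannot be told apart, and the part of the marker genes in these results was not tested.

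To show the start regions of these genes, RefSeq promoter windows of 250 bases before to 50 bases after the start site were searched for the core letters of a SOX site (ACAAAG or ACAATG) and for the E-box CAGGTG, on both strands. Among 32851 windows of all genes, 28.6% held the SOX letters and 20.2% the E-box. Of 31 cadherins and protocadherins looked up (the clustered protocadherins and a few others were not), 22 had a window. Of the genes called, the 3 with the largest decreases and *Pcdh15*, which was higher, are shown 5′ to 3′ on the gene's strand (GRCm38.p6, chr3:49757267-49757566 minus, chr8:99416422-99416721 minus, chr15:21111202-21111501 plus and chr10:73821617-73821916 plus), with matches in capitals. *Pcdh18* held the SOX letters at 2 places, both in reverse (CTTTGT), *Pcdh15* held the E-box once in reverse (CACCTG), and *Cdh8* and *Cdh12* held neither.
*Pcdh18*: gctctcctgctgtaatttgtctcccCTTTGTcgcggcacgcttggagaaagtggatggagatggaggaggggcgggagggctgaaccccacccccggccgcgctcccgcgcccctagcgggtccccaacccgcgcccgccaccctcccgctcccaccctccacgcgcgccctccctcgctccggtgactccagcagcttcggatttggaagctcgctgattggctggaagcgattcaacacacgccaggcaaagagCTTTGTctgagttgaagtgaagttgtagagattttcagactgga
*Cdh8*: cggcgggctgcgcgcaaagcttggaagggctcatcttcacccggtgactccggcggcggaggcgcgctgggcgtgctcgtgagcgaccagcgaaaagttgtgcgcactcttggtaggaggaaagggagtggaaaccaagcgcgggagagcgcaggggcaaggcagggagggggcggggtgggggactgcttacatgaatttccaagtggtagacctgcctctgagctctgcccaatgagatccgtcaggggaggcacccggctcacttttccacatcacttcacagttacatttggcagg
*Cdh12*: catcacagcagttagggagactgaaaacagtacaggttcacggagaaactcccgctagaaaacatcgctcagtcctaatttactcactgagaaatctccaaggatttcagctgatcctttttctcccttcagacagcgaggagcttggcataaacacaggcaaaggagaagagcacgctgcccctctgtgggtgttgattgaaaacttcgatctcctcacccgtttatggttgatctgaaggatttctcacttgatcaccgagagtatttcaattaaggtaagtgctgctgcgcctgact
*Pcdh15*: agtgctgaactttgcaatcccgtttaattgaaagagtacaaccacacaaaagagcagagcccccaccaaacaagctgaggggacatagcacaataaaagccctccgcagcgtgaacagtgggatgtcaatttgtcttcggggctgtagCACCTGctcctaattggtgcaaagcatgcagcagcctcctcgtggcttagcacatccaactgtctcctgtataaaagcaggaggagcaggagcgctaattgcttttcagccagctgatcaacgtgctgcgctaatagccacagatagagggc
The windows of *Cdh12* and *Pcdh15* lie inside the genes as GENCODE annotates them, so RefSeq places these starts downstream. A match of 6 letters is a description of the sequence. Of the 25 windows of all 22 genes, 20% held the SOX letters and 20% the E-box, and 1 of the 4 windows of genes called lower held the SOX letters.

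*Cdh3* and *Cdh1*, which encode P-cadherin and E-cadherin, the classical cadherins of epithelia, are neighbors on chromosome 8, with 46053 bases between them. *Cdh3* (chr8:106510891-106557297, plus strand) had 3, 3 and 1 counts in the controls and 17, 16, 32 and 6 counts in the libraries labelled Sox9, which is 0.29, 0.26 and 0.10 CPM against 2.33, 1.51, 3.58 and 1.26 CPM. With so few control counts, its fold is best given as a ratio of summed counts over library size, 10.2 with an exact 95% counting interval of 4.69 to 26.2, which covers counting error only. The test gave an adjusted p of 0.0021.

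*Cdh1* (chr8:106603351-106670246, plus strand) had 0.29, 1.82 and 0.81 CPM in the controls and 3.57, 3.87, 5.25 and 3.57 CPM in the libraries labelled Sox9. The 4 values were alike and all above the controls, with a log2 fold change of 2.03 (SE 0.50, adjusted p = 0.0084). The call was lost in 6 of 7 analyses that left out 1 library, all but the one without control replicate 2, with adjusted p-values of 0.0126 to 0.0275. Markers of choroid plexus, an epithelium of the brain ventricles, were higher as well: the sum of 7 genes was 1.34, 1.74 and 1.42 CPM in the controls and 15.5, 10.02, 12.1 and 15.3 CPM in the libraries labelled Sox9, with 3 of 4 tested genes called higher, all 4 of which passed the filter only through the libraries labelled Sox9. Their part in the difference in *Cdh1* and *Cdh3* was not tested.

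*Cdh16* and *Cdh17* encode kidney and liver-intestine cadherin, which have short tails and do not bind beta-catenin. *Cdh16* (chr8:104601911-104624396, minus strand) had 1, 2 and 2 counts in the controls and 12, 12, 8 and 5 in the libraries labelled Sox9, a ratio over library size of 7.43 with a 95% counting interval of 2.91 to 24.2. Its adjusted p was 0.0048, and without Sox9 replicate 2 it did not pass the filter and was not tested. The adjusted p rose to between 0.0114 and 0.0275 without Sox9 replicate 1 or without any 1 of the controls, so that the call was made in 2 of the 7 analyses. *Cdh17* (chr4:11758147-11817895, plus strand) had 1.15, 1.56 and 1.73 CPM in the controls and 7.69, 4.63, 5.14 and 3.98 CPM in the libraries labelled Sox9 (log2 fold change 1.85, SE 0.38, adjusted p = 0.0031). It was no longer called without Sox9 replicate 1, control replicate 1 or control replicate 2 (adjusted p of 0.0101 to 0.0126). *Cdh16* thus stayed near the lower end of what was measured, whereas *Cdh17* reached 3.98 CPM or more in each library labelled Sox9.

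*Cdh23* and *Pcdh15* encode the partners that together form the tip link of hair cell stereocilia in the inner ear, and *Pcdh15* is also known as a gene of oligodendrocyte precursors. *Pcdh15* (chr10:73099342-74649737, plus strand) had 3.73, 2.35 and 4.58 CPM in the controls and 9.48, 8.88, 14.2 and 7.55 CPM in the libraries labelled Sox9. Every library labelled Sox9 was above the highest control, and the log2 fold change was 1.51 (SE 0.32, adjusted p = 0.0038). Without Sox9 replicate 3 or control replicate 2, its adjusted p was 0.0153 to 0.0177.

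*Cdh23* (chr10:60302748-60696490, minus strand) had 0.96, 0.87 and 1.42 CPM in the controls and 5.91, 2.36, 5.25 and 2.73 CPM in the libraries labelled Sox9. The latter fell into a higher and a lower pair, both above the controls. Its log2 fold change was 1.91 (SE 0.46, adjusted p = 0.0072), and the call was lost without Sox9 replicate 1, Sox9 replicate 3 or any of the 3 controls, with adjusted p-values of 0.0119 to 0.0288.

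Markers of oligodendrocyte precursors were also higher in the libraries labelled Sox9. Their summed level over 6 genes was 0.86, 1.56 and 0.81 CPM in the controls and 27.7, 10.8, 9.73 and 13.4 CPM in the libraries labelled Sox9, and *Olig2* had no counts in 2 of the 3 controls. Of 5 genes tested, 4 were called higher, but all 5 passed the filter only through the libraries labelled Sox9. Whether they have a part in the difference in *Pcdh15* was not tested.

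*Pcdh12*, a protocadherin known from endothelial cells, had 0.19, 0.96 and 0.61 CPM in the controls and 3.02, 2.65, 2.79 and 2.94 CPM in the libraries labelled Sox9. The spread of the latter was small. Its log2 fold change was 2.24 (SE 0.51, adjusted p = 0.0054), and the call was lost without Sox9 replicate 1, Sox9 replicate 3, control replicate 1 or control replicate 4 (adjusted p of 0.0115 to 0.0202). The summed level of 7 endothelial markers was 4.78, 13.6 and 6.20 CPM in the controls and 25.8, 22.5, 43.9 and 16.8 CPM in the libraries labelled Sox9, with 2 of 6 tested genes called higher, 1 of which (*Kdr*) passed the filter only with the help of libraries labelled Sox9. Their part in this result was not tested.

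All 7 of these genes were weakly expressed, and weakly expressed genes as a whole tended to be higher in the libraries labelled Sox9. Below an average log2 CPM of 1, the 11 cadherins and protocadherins tested had a median log2 fold change of 1.47, with 3 called higher, and the 2076 protein-coding genes at that level had a median of 1.53, with 21.6% called higher. Between 1 and 3, the 21 cadherins and protocadherins had a median of 0.25, with 4 called higher, beside 0.60 and 22.5% of 3500 protein-coding genes. The filter, which asks for 3 libraries at its limit of 0.956 CPM or more (on library sizes without TMM factors), also acts on these genes. With fewer than 3 controls at the limit, 12 of the 53 tested genes passed only with the help of libraries labelled Sox9. They included 5 of the 7 called higher, *Cdh1*, *Cdh3*, *Cdh16*, *Cdh23* and *Pcdh12*, which were thus tested only because libraries labelled Sox9 reached the limit, and the count of 7 is no support for a rise of the family. *Cdh17* and *Pcdh15* were at the limit in all 7 libraries. Chemoreceptor genes, known from sensory epithelia of the nose and tongue, summed to 113 to 155 CPM in the controls and 342 to 481 CPM in the libraries labelled Sox9, with 13 of 99 tested called higher. Other low marker lists also had higher sums there: 8 mural and meningeal markers had 8.75 to 11.4 and 14.4 to 28.6 CPM, and 7 interneuron markers 4.68 to 5.39 and 7.94 to 14.8 CPM. The ranges overlapped for 7 erythroid markers, with 2.10 to 24.7 and 14.6 to 94.8 CPM, and for 7 microglia markers, with 9.94 to 37.3 and 13.8 to 62.8 CPM. The part of such low-level signal in the difference of the 7 genes was not tested.

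**Figure D2:**
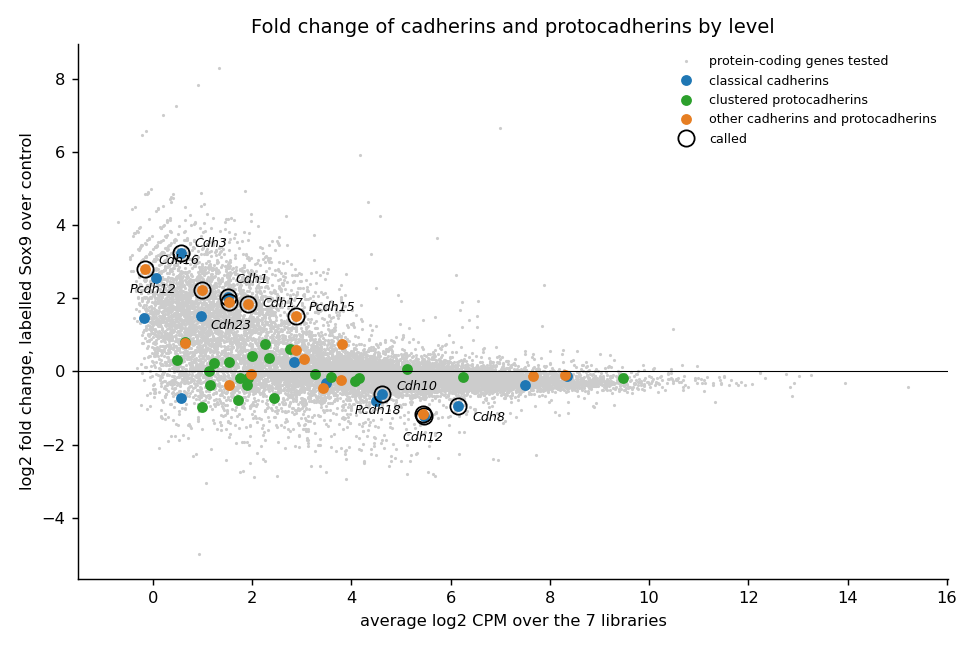
Log2 fold change (labelled Sox9 over control, TMM) against average log2 CPM over the 7 libraries, for protein-coding genes tested (grey) and for 53 cadherins and protocadherins by family, with the 11 genes called ringed. The 7 genes called higher lie under an average log2 CPM of 3, where the grey cloud is shifted upward, and the 4 genes called lower lie between 4 and 7, below the cloud's centre.

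At higher levels the comparison with other genes was different. Between an average log2 CPM of 3 and 6, 3 of 14 cadherins and protocadherins were called lower (*Cdh10*, *Cdh12* and *Pcdh18*), beside 4.60% of 5565 protein-coding genes. Above 6, 1 of 7 (*Cdh8*) was called lower, beside 8.06% of 3126 protein-coding genes. No cadherin or protocadherin with an average log2 CPM over 3 was called higher, and with such small numbers the counts are given as a description.

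Cyclic loess scaling removes a dependence of fold change on level. It was used with a prior count of 2, which by itself lowers the fold of genes with few counts. The calls after this scaling were 0 higher and 3 lower among the 53 genes (limma-trend, adjusted p under 0.01). Of the 14267 protein-coding genes, 2.21% were called higher and 1.77% lower. The 3 genes were *Pcdh18* (log2 fold change -0.98, adjusted p = 0.0030), *Cdh12* (-1.06, adjusted p = 0.0075) and *Cdh24*, a weakly expressed type II cadherin at 0.93 to 1.60 CPM on average (-1.96, adjusted p = 0.0081, against -0.73 and an adjusted p of 0.25 under TMM), which passed the filter only with the help of the controls. *Cdh8* kept its direction (-0.75, adjusted p = 0.0262), as did *Cdh10* (-0.46, adjusted p = 0.0661). All 7 genes called higher stayed positive, with *Pcdh15* at 1.22 (adjusted p = 0.0190), *Cdh1* at 1.16 (adjusted p = 0.1122), *Cdh17* at 1.05 (adjusted p = 0.0475), *Cdh3* at 0.96 (adjusted p = 0.1709) *Pcdh12* at 0.93 (adjusted p = 0.1586), *Cdh23* at 0.80 (adjusted p = 0.1735) and *Cdh16* at 0.20 (adjusted p = 0.8039). Of the 11 calls, those of *Pcdh18* and *Cdh12* were thus made under both scalings. At an unadjusted p under 0.05 in limma-trend, 7 of the 53 genes were higher, with *Pcdh17* among them and *Cdh16* not. Lower at that p were *Cdh6*, *Cdh8*, *Cdh10*, *Cdh12*, *Cdh24*, *Pcdh18*, *Pcdh20*, *Pcdhb3*, *Pcdhb6*, *Pcdhb8*, *Pcdhb10*, *Pcdhb12*, *Pcdhb14* and *Pcdhb22*. DESeq2 called 6 of the 53 higher and 5 lower, beside 1569 and 1392 of the 14267 protein-coding genes.

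**Figure D3:**
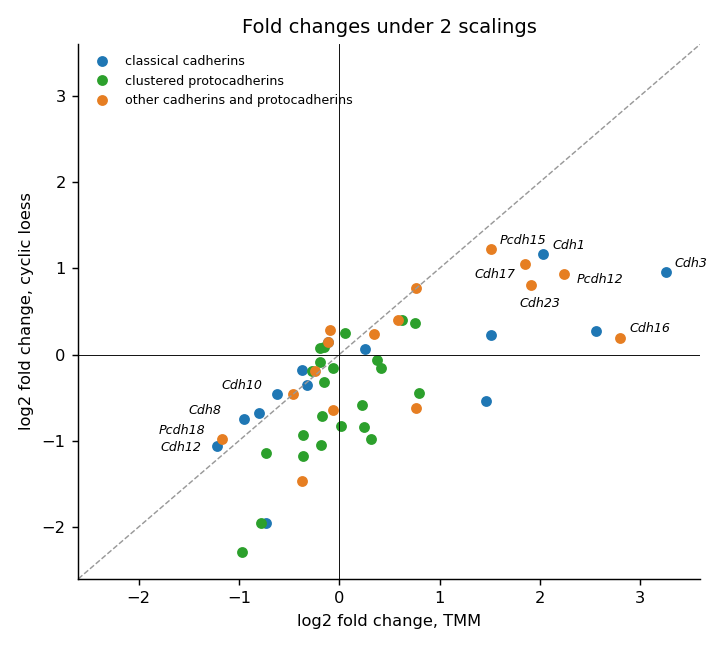
Log2 fold changes of the 53 cadherins and protocadherins tested, with TMM on the horizontal and cyclic loess on the vertical axis, colored by family; the dashed line marks equal values. The 4 genes called lower lie near the line, whereas those called higher lie below it, with *Cdh16* moving from 2.80 to 0.20.

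The groups did not overlap for 10 genes that were higher and 5 that were lower among the 53, beside 19.8% and 18.4% of the 14267 protein-coding genes. Besides the 11 called, these were the type II cadherins *Cdh6*, *Cdh9* and *Cdh20* and the protocadherin *Pcdh17*, which did not pass the test and are named because of this separation. *Cdh6*, known to mark regions of the early forebrain, was at 29.4 ± 5.44 CPM (SD, n = 3) in the controls and 16.8 ± 4.31 CPM (SD, n = 4) in the libraries labelled Sox9 (log2 fold change -0.80, adjusted p = 0.0116). It was called lower by DESeq2 (adjusted p = 0.0017), without a filter on low counts (adjusted p = 0.0003) and without Sox9 replicate 2, but not after cyclic loess (adjusted p = 0.0587). *Pcdh17*, a delta2 protocadherin of axons and synapses, was at 9.93 ± 1.07 CPM (SD, n = 3) and 16.8 ± 4.01 CPM (SD, n = 4), a log2 fold change of 0.76 (adjusted p = 0.0221), and stood opposite to *Pcdh18* of the same group. *Cdh9* (adjusted p = 0.0155) and *Cdh20* (adjusted p = 0.0351) had at most 2.24 and 3.57 CPM in any library, and *Cdh9* was called higher in the fit without a filter (adjusted p = 0.0077).

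Of the 10 type II cadherins tested, 6 had a negative log2 fold change. They were the 5 with more than 9 CPM on average in both groups (*Cdh8*, *Cdh12*, *Cdh10*, *Cdh6* and *Cdh11*) and the weak *Cdh24*, and the other 4 were also weak (*Cdh7*, *Cdh9*, *Cdh20* and *Cdh22*). Protein-coding genes as a whole differed by level too, with 1828 of 2076 positive under an average log2 CPM of 1 and 1889 of 5565 between 3 and 6. Of the 5 more abundant type II genes, *Cdh11* had the smallest change, from 12.4 ± 2.21 CPM (SD, n = 3) to 9.89 ± 2.37 CPM (SD, n = 4; log2 fold change -0.33, adjusted p = 0.33). The sum over all 17 classical cadherins was 790 ± 81.4 CPM (SD, n = 3) in the controls and 616 ± 72.0 CPM (SD, n = 4) in the libraries labelled Sox9.

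Levels between genes were compared as CPM per kilobase of exon. Whether reads in introns were counted is not given in the sources used here, and the order of genes depends on it. *Cdh4*, encoding R-cadherin, stood first among the classical cadherins per kilobase of exon, with 46.6 ± 8.90 CPM per kilobase (SD, n = 3) in the controls and 42.9 ± 6.88 CPM per kilobase (SD, n = 4) in the libraries labelled Sox9. Per kilobase of gene span, *Cdh2* came before it, with 0.939 ± 0.241 against 0.740 ± 0.141 CPM per kilobase (SD, n = 3) in the controls. *Cdh4* made up 40.4 to 49.5% of the summed classical level per kilobase of exon in the controls and 46.3 to 63.8% in the libraries labelled Sox9. Without the division by length, *Cdh4* had 310, 412 and 292 CPM in the controls and 356, 310, 339 and 242 CPM in the libraries labelled Sox9, and the groups overlapped (log2 fold change -0.12, SE 0.15, adjusted p = 0.58).

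Per kilobase of exon, *Cdh2* followed, with 25.7 ± 6.58 CPM per kilobase (SD, n = 3) and 19.8 ± 6.97 CPM per kilobase (SD, n = 4). Its level was 264, 199 and 158 CPM in the controls and 78.6, 183, 207 and 170 CPM in the libraries labelled Sox9, of which replicate 1 was the lowest. The log2 fold change of -0.37 (SE 0.25, adjusted p = 0.26) was within the spread, and without Sox9 replicate 1 it was smaller, at -0.12. *Cdh8* and then *Cdh12* came next in both groups per kilobase of exon, and their shares of the classical level were 9.45 to 14.1% and 7.51 to 12.3% in the controls and 5.98 to 10.1% and 4.28 to 6.60% in the libraries labelled Sox9.

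**Figure D4:**
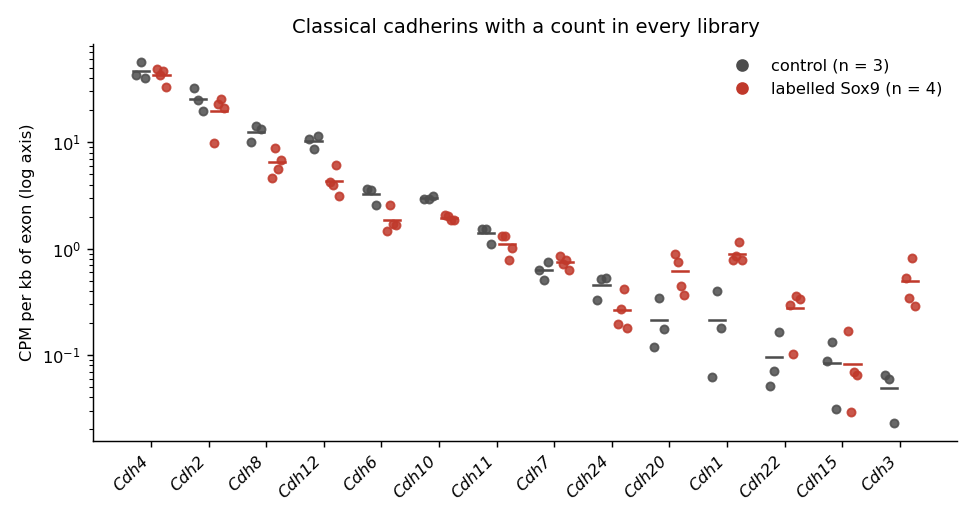
CPM per kilobase of exon (log axis) of the 14 classical cadherins with a count in every library, ordered by mean in the controls (grey), beside the libraries labelled Sox9 (red); bars mark group means. *Cdh4* and *Cdh2* lead in both groups, *Cdh8* and *Cdh12* follow at a lower level in red, and *Cdh1* and *Cdh3* lie among the weakest in the controls.

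Among the other cadherins, *Cdh13* encodes T-cadherin, which is held in the membrane by a lipid anchor and has no cytoplasmic tail. It had 535, 211 and 230 CPM in the controls and 367, 326, 297 and 232 CPM in the libraries labelled Sox9. Control replicate 1 was higher than any other library, and all 4 libraries labelled Sox9 were above the other 2 controls. The log2 fold change was -0.09 (SE 0.26, adjusted p = 0.82) and turned to 0.46 (adjusted p = 0.0553) without control replicate 1, so no direction can be given for this gene.

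*Pcdh9*, a delta1 protocadherin of neurons, was the most abundant non-clustered protocadherin per kilobase of exon. It had 217, 231 and 188 CPM in the controls and 191, 196, 208 and 187 CPM in the libraries labelled Sox9, and the groups overlapped (log2 fold change -0.11, SE 0.11, adjusted p = 0.46). Of the 12 non-clustered protocadherins, all of which were tested, 2 were higher, 1 was lower and 9 did not pass the test. None of the 4 delta1 members was called by the quasi-likelihood test (0 at an unadjusted p under 0.05, and 0 by DESeq2), and of the 5 delta2 members *Pcdh18* was called.

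The clustered protocadherins lie on chromosome 18. Each *Pcdhb* gene is a single exon with a promoter of its own, and all 22 had a row in the count table. In the *Pcdha* and *Pcdhg* clusters, variable exons are spliced to constant exons that all transcripts of the cluster share. Only 1 row of each was in the table by this annotation, named *Pcdha11* and *Pcdhgc4*, and the 33 other genes of these clusters (13 *Pcdha* and 20 *Pcdhg*) were not analysed here. Whether these 2 rows also collect reads from the shared exons is not known, so each is read as a row of its cluster and its level per kilobase is uncertain. *Pcdhb* genes resemble each other closely, and reads shared between them may have been assigned or dropped unequally.

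The *Pcdhgc4* row was the highest of all 58 genes, with 137 ± 11.1 CPM per kilobase (SD, n = 3) in the controls and 120 ± 18.9 CPM per kilobase (SD, n = 4) in the libraries labelled Sox9. It had 830, 761 and 706 CPM in the controls and 576, 782, 743 and 588 CPM in the libraries labelled Sox9 (log2 fold change -0.19, SE 0.13, adjusted p = 0.28). The *Pcdha11* row had 98.9, 75.5 and 67.1 CPM and 68.0, 78.5, 74.2 and 68.2 CPM, respectively (log2 fold change -0.16, SE 0.14, adjusted p = 0.43). In both rows the groups overlapped.

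Summed over the 22 *Pcdhb* genes, the level was 155, 134 and 142 CPM in the controls and 137, 143, 146 and 130 CPM in the libraries labelled Sox9. The means, 144 ± 10.8 CPM (SD, n = 3) and 139 ± 7.28 CPM (SD, n = 4), differed by less than the SD of either group. With TMM, 10 of the 21 *Pcdhb* genes tested had a positive and 11 a negative log2 fold change. The median was -0.06 and the range -0.96 to 0.79. After cyclic loess scaling the median was -0.58, and only *Pcdhb4*, *Pcdhb7* and *Pcdhb21* had positive values. Over all protein-coding genes tested, the median after that scaling was -0.01. In the quasi-likelihood test with TMM, the 2 genes at an unadjusted p under 0.05 moved in opposite directions. *Pcdhb4* went from 3.33 ± 1.28 (SD, n = 3) to 5.69 ± 1.13 CPM (SD, n = 4), with an adjusted p of 0.10. *Pcdhb8* went from 6.67 ± 1.5 (SD, n = 3) to 3.94 ± 1.56 CPM (SD, n = 4), with an adjusted p of 0.11. In limma-trend after cyclic loess scaling, *Pcdhb3*, *Pcdhb6*, *Pcdhb8*, *Pcdhb10*, *Pcdhb12*, *Pcdhb14* and *Pcdhb22* were lower at an unadjusted p under 0.05. No *Pcdhb* gene was higher at that p, and none was called by the adjusted p.

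The cluster was unevenly used, and *Pcdhb7* was its leading gene in each of the 7 libraries. *Pcdhb7* had 33.7, 36.9 and 30.0 CPM in the controls and 39.3, 34.7, 32.4 and 33.8 CPM in the libraries labelled Sox9 (log2 fold change 0.06, SE 0.15, adjusted p = 0.78), and took 24.7 to 31.6% and 25.3 to 33.2% of the cluster's summed level per kilobase. *Pcdhb17* came second in both groups, with 20.8, 18.4 and 17.6 CPM in the controls and 14.7, 18, 18.3 and 15.1 CPM in the libraries labelled Sox9 (log2 fold change -0.19, SE 0.18). *Pcdhb20* had 13.7, 10.7 and 13 CPM in the controls and a wider spread of 9.07, 13.6, 16.3 and 4.82 CPM in the libraries labelled Sox9 (log2 fold change -0.15, SE 0.31). *Pcdhb1*, at the start of the cluster, was the lowest, with 2 counts in all controls and 6 in all libraries labelled Sox9, and was not tested.

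**Figure D5:**
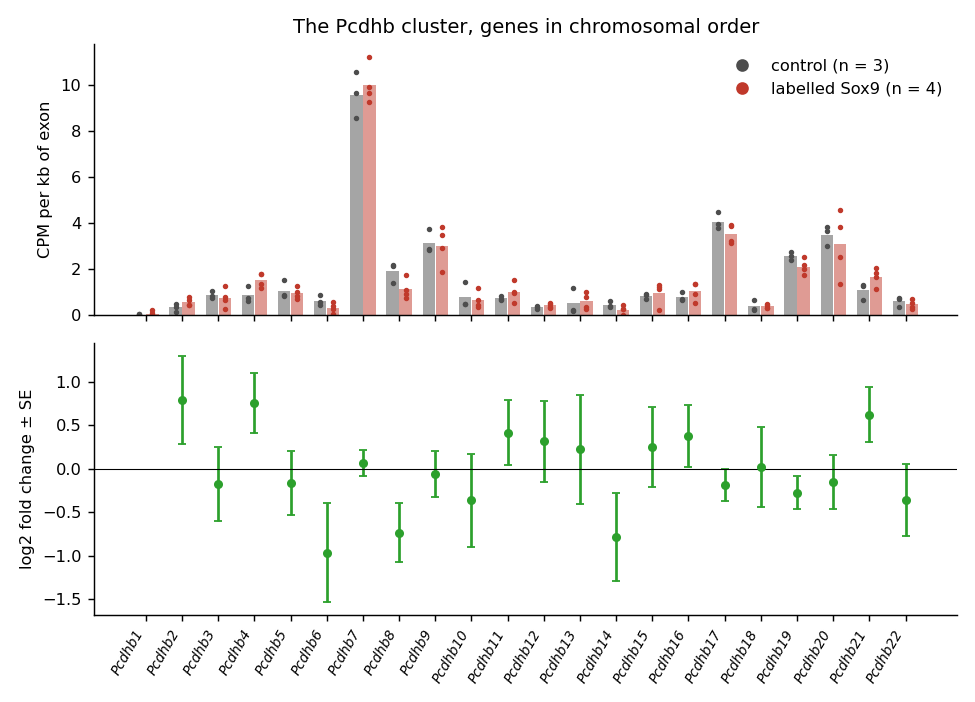
The 22 *Pcdhb* genes in chromosomal order: CPM per kilobase of exon per library as points with bars for group means (top, controls grey, labelled Sox9 red), and log2 fold change ± SE of the 21 genes tested (bottom). *Pcdhb7* stands out in both groups. With TMM, as drawn, 10 fold changes lie above and 11 below 0, and after cyclic loess scaling the median was -0.58.

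Proteins that act with cadherins were examined in 5 lists, of which 60 of 70 genes were tested. Of these, 5 were higher and 2 lower, with a median log2 fold change of -0.13, beside 9.96% higher and 3.88% lower of all protein-coding genes tested. After cyclic loess scaling none of the 5 genes was called higher. Of 12 catenins and junction linkers, 1 was lower and 1 higher. *Ctnna1*, encoding alpha-E-catenin, which ties the cadherin complex to actin, had 148, 262 and 213 CPM in the controls and 66.5, 103, 81.9 and 57.5 CPM in the libraries labelled Sox9. The groups were well apart, with a log2 fold change of -1.42 (SE 0.20, adjusted p = 0.0003). The call was made in all of 17 other analyses, cyclic loess included (log2 fold change -1.18, adjusted p = 0.0033 at most over the 17). The radial glia markers, called lower in 4 of 8, moved in the same direction, and their part in this result was not tested.

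*Ctnna3*, encoding alpha-T-catenin, known from heart muscle, was higher but weak, with 1.24, 1.39 and 3.05 CPM in the controls and 7.28, 5.01, 9.17 and 7.55 CPM in the libraries labelled Sox9 (log2 fold change 1.93, SE 0.39, adjusted p = 0.0029). Its call was lost without Sox9 replicate 3, control replicate 1 or control replicate 2 (adjusted p of 0.0108 to 0.0132), and after cyclic loess (log2 fold change 1.41, adjusted p = 0.0167). The other abundant catenins did not pass the test. *Ctnnb1* (beta-catenin) had a mean of 146 ± 15.6 CPM (SD, n = 3) in the controls and 124 ± 17.5 CPM (SD, n = 4) in the libraries labelled Sox9. *Ctnna2* (alpha-N-catenin, the neural form) had 201 ± 49.0 CPM (SD, n = 3) and 227 ± 46.8 CPM (SD, n = 4).

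Of 18 other genes of the cadherin superfamily tested, 2 were higher. *Cdhr2*, a cadherin of intestinal microvilli, had 0.57, 0.70 and 0.61 CPM in the controls and 3.98, 3.02, 6.15 and 3.98 CPM in the libraries labelled Sox9 (log2 fold change 2.75, SE 0.44, adjusted p = 0.0008). *Dsc3*, a desmosomal cadherin of stratified epithelia, had 0.67, 1.39 and 0.81 CPM and 4.53, 4.06, 6.26 and 3.57 CPM (log2 fold change 2.25, SE 0.42, adjusted p = 0.0019). Both passed the filter only with the help of libraries labelled Sox9, as fewer than 3 controls reached its limit, and neither was called after cyclic loess scaling (adjusted p of 0.0173 and 0.0388).

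Of 7 enzymes that process cadherins, 2 were higher, both of them proprotein convertases, which cut the prodomain from their substrates. *Pcsk6* had 0.57, 0.70 and 0.92 CPM in the controls and 5.63, 3.59, 4.25 and 3.98 CPM in the libraries labelled Sox9 (log2 fold change 2.56, SE 0.42, adjusted p = 0.0009). *Pcsk5* had 3.06, 1.48 and 1.32 CPM and 6.32, 5.01, 7.04 and 5.45 CPM (log2 fold change 1.60, SE 0.37, adjusted p = 0.0063), and was not called without Sox9 replicate 1, Sox9 replicate 3, control replicate 2 or control replicate 4 (adjusted p of 0.0150 to 0.0250). *Pcsk6* was under the filter limit in every control and was tested only through the libraries labelled Sox9. After cyclic loess, the log2 fold changes were 1.38 for *Pcsk6* (adjusted p = 0.0152) and 1.05 for *Pcsk5* (adjusted p = 0.0574). *Adam10*, the sheddase of N-cadherin, was at 77.2 ± 7.24 CPM (SD, n = 3) and 79.9 ± 10.7 CPM (SD, n = 4).

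For the clustered protocadherins, promoter choice depends on CTCF and cohesin. None of 11 genes of this list was called by the quasi-likelihood test with the filter, although the log2 fold change was negative for 9 of the 11, and 6 were lower at an unadjusted p under 0.05. Of the 9785 protein-coding genes within the range of level of this list, 66.5% had a negative value and 23.7% were lower at that p, and nothing particular to the list is read from its counts. DESeq2 called 1 of the 11, *Stag2*, the quasi-likelihood test with no filter on low counts called 3, *Stag2* (adjusted p = 0.0013), *Rad21* (adjusted p = 0.0061) and *Smc1a* (adjusted p = 0.0072), and 0 were called after cyclic loess scaling. The cohesin subunit gene *Stag2* had 59.1, 69.5 and 64.7 CPM in the controls and 34.9, 46.0, 43.8 and 51.2 CPM in the libraries labelled Sox9 (log2 fold change -0.55, SE 0.15, adjusted p = 0.0123). *Rad21* of the same complex had 42.6, 54.8 and 59.1 CPM and 31.3, 44.4, 39.2 and 32.3 CPM (log2 fold change -0.50, SE 0.17, adjusted p = 0.0343). *Stag2* separated the groups and *Rad21* did not.

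Of 12 genes listed as partners of protocadherin tails, whether they bind directly or act with a binding protein, 1 was lower. *Cyfip1*, a subunit of the WAVE complex that controls branched actin, had 152, 146 and 141 CPM in the controls and 116, 99.9, 115 and 93.1 CPM in the libraries labelled Sox9 (log2 fold change -0.47, SE 0.12, adjusted p = 0.0094). The groups were apart, but the call was lost without any 1 of the 7 libraries (adjusted p of 0.0140 to 0.0444). It was also lost after cyclic loess (log2 fold change -0.23, adjusted p = 0.25 in limma-trend). *Ptk2*, encoding focal adhesion kinase, had 136, 116 and 117 CPM and 92.3, 106, 100.4 and 86.6 CPM and did not pass the test (log2 fold change -0.35, SE 0.12, adjusted p = 0.0375).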

How the data were processed

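The authors sequenced RNA of High RFP cells from *Tis21*-CreERT2 neocortex (3 control libraries, 4 libraries labelled Sox9). RNA was reverse transcribed from poly-dT primers, amplified by PCR and sequenced without molecular identifiers. Per the labels and methods, reads were trimmed with cutadapt and aligned to GRCm38 (mm10) with STAR (2.5.2b, per the submitters' processing notes). The deposited tables held raw, unscaled counts for each Ensembl gene, and FPKM values. How reads were assigned to genes, and whether strand was used, are not given in the sources used here. FPKM were used only to check their length: for 14 cadherins and protocadherins with at least 1000 counts in all, the implied length was within 2% of the gene's span for 12 and of its exonic length for 3, all 3 single-exon genes.

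Symbols, biotypes and exons came from GENCODE M21 on GRCm38, in which 36345 of 38124 genes of the table were found. Counts were tested in R 4.3.3 with edgeR 4.0.16 (TMM, filterByExpr by group with a minimum count of 10, two-sided quasi-likelihood test, no covariate, Benjamini-Hochberg adjustment over 16522 genes). Calls (adjusted p under 0.01) were counted over protein-coding genes. CPM use TMM-scaled library sizes, and an SE is the absolute log2 fold change over the square root of F. Where all control libraries had at most 3 counts, an exact binomial 95% interval of the ratio was computed. Alternatives were DESeq2 1.42.0, DESeq2 size factors in edgeR, cyclic loess with limma-trend (limma 3.58.1, prior count 2), the test with no filter, a filter that asks for 10 or more counts in each library, protein-coding genes only, a threshold of 0.05, glmTreat at 1.5-fold, a replicate block and leaving out each library.

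Values in each library are given for genes called (at most 12 per direction), the 12 members with the highest CPM per kilobase of exon, *Cdh1*, *Cdh2*, *Cdh13*, *Pcdhgc4* and the 2 genes with the smallest p of each partner list. *Pcdhga12*, *Pcdhgc3* and *Pcdhac2* belonged to the same rule and were not analysed here. The members and all lists were chosen with earlier results of these data known. Groups and replicate numbers follow the sample titles. Nothing in the labels says whether libraries of a group came from separate litters, so p-values measure the spread between these libraries. Promoter sequences are from RefSeq (GRCm38.p6).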

Additional observations from a re-analysis of the deposited data

How the results depend on the processing

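Against 7 genes higher and 4 lower among the cadherins and protocadherins, at least 10 counts in every library left 3 and 2, cyclic loess left 0 higher (3 lower), and glmTreat against a 1.5-fold change left 1 and 2. Leaving out 1 library gave 2 to 6 higher and 2 to 4 lower. Among the partner genes (5 higher, 2 lower), the counts were 10 and 9 at an adjusted p under 0.05, 3 (2 of the 5) and 1 with at least 10 counts in every library, 1 and 1 after cyclic loess (the 1 higher being *Fat3*, none of the 5), and 3 and 1 with glmTreat. They were 5 lower with no filter and 1 lower with protein-coding genes only, and leaving out 1 library gave 3 to 7 higher and 1 lower. The replicate block by titles gave 0 higher among the cadherins and protocadherins and 0 higher and 1 lower among partner genes, and the replicate block by descriptions gave 3 higher among the former and 1 lower among the latter. Same-numbered libraries correlated at -0.0356, 0.118 and -0.00485 by titles, and at -0.0356, 0.118 and 0.0170 by descriptions, so the numbers were not taken to pair the samples. Among the genes given with values in each library, directions turned for 7, none of them called by edgeR's quasi-likelihood test: *Cdh4* (0.0228 with at least 10 counts, 0.15 after loess, 0.000546 in the block by descriptions, -0.19 to 0.0545 with 1 library left out), *Pcdha11* (0.0902 after loess, -0.25 to 0.0025), *Pcdhb7* (-0.0245 in DESeq2, -0.0290 without filter), *Pcdhb20* (0.0408 in the block by descriptions, -0.38 to 0.13), *Pcdhgc4* (0.0731 after loess), *Pcdh9* (0.0258 with at least 10 counts, 0.14 after loess) and *Cdh13* (0.0575 with at least 10 counts, 0.29 after loess, 0.15 and 0.0328 in the blocks by descriptions and titles, -0.31 to 0.46 with 1 library left out). Where an alternative tests fewer genes or samples, that is part of its effect, and beyond this the cause was not tested. Depth limits the genes with a few counts per library, above all in Sox9 replicate 4, the library with the fewest counts (4429704).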

Other observations

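*Fat3*, an atypical cadherin of the Fat family known from neuronal migration and dendrite shape, was outside the rule for genes with values and is named after its values were seen. It had 41.7, 26.2 and 32.8 CPM in the controls and 56.2, 50.2, 53.5 and 43.6 CPM in the libraries labelled Sox9, and the groups did not overlap. The log2 fold change was 0.60 (SE 0.17, adjusted p = 0.0159 in edgeR's quasi-likelihood test) with TMM and 0.82 (adjusted p = 0.0084 in limma) after cyclic loess scaling. Of the same list, *Fat4* (log2 fold change -0.11, adjusted p = 0.69), *Celsr3* (-0.11, adjusted p = 0.60) and the more abundant *Celsr2* (-0.20, adjusted p = 0.35) did not pass the test.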
